A study of Homo sapiens with 2 samples.

Results

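The albumin family genes of chromosome 4 were examined in 2 CUT&Tag peak lists from PLC8024 cells, an established human liver cancer line. The genes are GC, ALB, AFP and AFM, and their peaks are those that the deposited annotation names for 1 of them, in any annotation class. The drug library came from cells that were kept with a drug for 6 hours at a dose of 10 nM, and the control library from the same line under the label control. The labels give the name of neither the drug nor the antibody, so what the peaks mark is not stated. Of the 29283 peaks of the drug list 2 belonged to these genes, and of the 49854 peaks of the control list 3 did. Matching by gene identifier in place of name gave the same 2 and 3 peaks. There was 1 library per group, so no test between them was possible, and the number of reads behind each list is unknown. Each library pools many cells, so fewer marked cells and weaker marking per cell cannot be told apart.

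The 4 genes arose by duplication of a common ancestral gene and encode related proteins that the liver secretes into blood. ALB encodes albumin, the main carrier protein of plasma. AFP encodes alpha-fetoprotein, its counterpart in the fetus, which is silenced in the adult liver and comes back in many liver cancers. AFM encodes afamin, which carries vitamin E, and GC encodes the vitamin D-binding protein. In liver cells these genes are driven by factors such as HNF4, FOXA and C/EBP proteins, which act at short promoters and at distant enhancers, among them an enhancer region of AFP that lies a few kilobases before the gene.

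Peaks were found at 1 place close to a gene of the family, before AFP, and this place was marked in both libraries. AFP had 2 peaks in the drug list and 2 in the control list, all intergenic and all between 3.4 and 3.9 kb before its transcription start site. ALB had 0 peaks in the drug list and 1 in the control list, far from the gene. AFM and GC had 0 peaks in either list. None of the 4 genes had a promoter peak or a peak inside its gene body in either list.

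The starts of ALB and AFP are shown because both lacked a peak and hold few CpG dinucleotides, which the next paragraphs count. Both sequences are from RefSeq (GRCh38.p14), run from 250 bases before to 50 bases after the start of the gene, and lie on the plus strand at chr4:73404037-73404336 for ALB and chr4:73435971-73436270 for AFP. Capitals mark CpG and matches to TATAAA, the TATA box.
ALB: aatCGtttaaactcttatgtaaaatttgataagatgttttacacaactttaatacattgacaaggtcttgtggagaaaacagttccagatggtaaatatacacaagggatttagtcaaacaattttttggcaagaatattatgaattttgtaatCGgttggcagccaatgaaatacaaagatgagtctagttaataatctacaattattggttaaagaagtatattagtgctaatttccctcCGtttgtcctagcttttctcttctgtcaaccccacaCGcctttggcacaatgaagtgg
AFP: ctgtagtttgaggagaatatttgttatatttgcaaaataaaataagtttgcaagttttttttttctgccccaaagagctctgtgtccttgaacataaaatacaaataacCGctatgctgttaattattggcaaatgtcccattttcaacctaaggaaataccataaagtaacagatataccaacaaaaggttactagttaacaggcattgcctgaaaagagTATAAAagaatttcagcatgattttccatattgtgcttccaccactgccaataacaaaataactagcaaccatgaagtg

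TATAAA began 29 bases before the start site of AFP and 30 bases before that of AFM, and was not found in the ALB window. Variant forms of the TATA box were not searched, so ALB cannot be said to lack one. On either strand, TATAAA occurred in 11.5% of the 35116 promoters of the same length in that RefSeq table. The letters TGTTTAC (FOXA), CAAAGTCCA (HNF4) and TTGCGCAA (C/EBP) were in none of the ALB, AFP and AFM windows, against 3.42%, 0.384% and 0.151% of all promoters. No matches in the windows of these genes overlapped. With shares this low, absence from so few windows cannot be set apart from the background. Motifs of other liver factors are not reported here, so these windows cannot be said to lack sites for such factors. The nearest peak to the edge of the ALB window was 27887 bp away in drug and 27845 bp away in control, and for the AFP window 3157 bp in drug and 3017 bp in control. For the AFM window the distances were 48681 bp in drug and 48541 bp in control. In each case the nearest peak was the AFP pair.

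The promoter windows of ALB, AFP and AFM are poor in the dinucleotide CpG, with 4 in ALB, 1 in AFP and 1 in AFM, against a median of 14 over all promoters. The GC promoter was not analysed here. Among 2631 protein-coding genes with at most 4 CpG in this window, 7.49% had a promoter peak in drug (exact 95% interval 6.51 to 8.56) and 10.7% in control (9.56 to 12.0). Over all 15843 protein-coding genes with a sequence in the table, the shares were 37.8% in drug and 42.5% in control. The part of CpG content in the missing peaks was not tested.

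**Figure D1:**
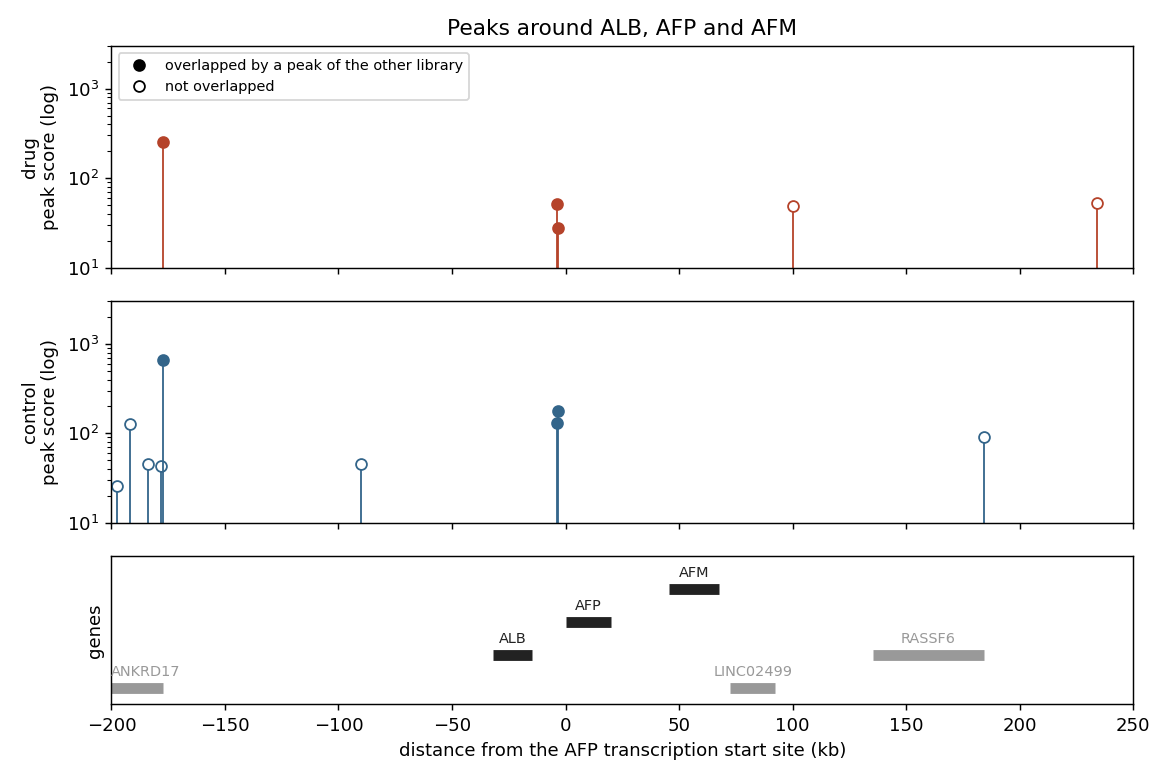
Peaks (circles) from 200 kb before to 250 kb after the AFP transcription start site, with the deposited peak score on a log axis, for the drug library (top) and the control library (middle), and gene bodies (bottom; family genes in black). Filled circles are peaks overlapped by a peak of the other library: the pair before AFP is filled in both, with scores of 51 and 28 in drug and 129 and 180 in control, and the peak at ALB is open and in control alone.

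The peak farther from AFP lay at chr4:73432224-73432423 in drug and chr4:73432182-73432460 in control (hg38). It was 200 bp wide in drug and 279 bp in control, and its centre lay 3898 bp before the start site in drug and 3900 bp in control. Its score was 51 in drug, which ranked 16485 and thus in the top 56.3% of the list, and 129 in control, which ranked 17970 and in the top 36.05%. The score is the authors' own whole number, on a −log10 scale of the q-value multiplied by 10 by the convention of the peak caller MACS2, and it describes a peak within its own list. The whole drug peak lay inside the control peak.

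The peak nearer to AFP lay at chr4:73432614-73432813 in drug and chr4:73432599-73432953 in control. It was 200 bp wide in drug and 355 bp in control, and its centre lay 3508 bp before the start site in drug and 3445 bp in control. Its score was 28 in drug, in the top 77.0% of the list, and 180 in control, in the top 28.7%. Here too the drug peak lay wholly inside the control peak. The control peak was annotated to a MER94 element, an ancient DNA transposon, while the drug peak, with its centre farther from the gene, was not.

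The gap between the paired peaks was 190 bp in drug and 138 bp in control, and the pair spanned 590 bp in drug and 772 bp in control. The pair lay in the 14.7 kb between the end of ALB and the start of AFP, with its outer edge 10741 bp from the end of ALB in drug and 10699 bp in control. The order of the scores within the pair differed between the lists: the peak farther from AFP had the higher score in drug, and the nearer one in control. Neighbouring control peaks at most 200 bp apart that each met 1 separate drug peak numbered 210 pairs, and in 39 of them (18.6%, 13.6 to 24.5) the order of scores likewise differed between the lists. Both drug peaks had the smallest width in the list, which 35.9% of all drug peaks had.

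**Figure D2:**
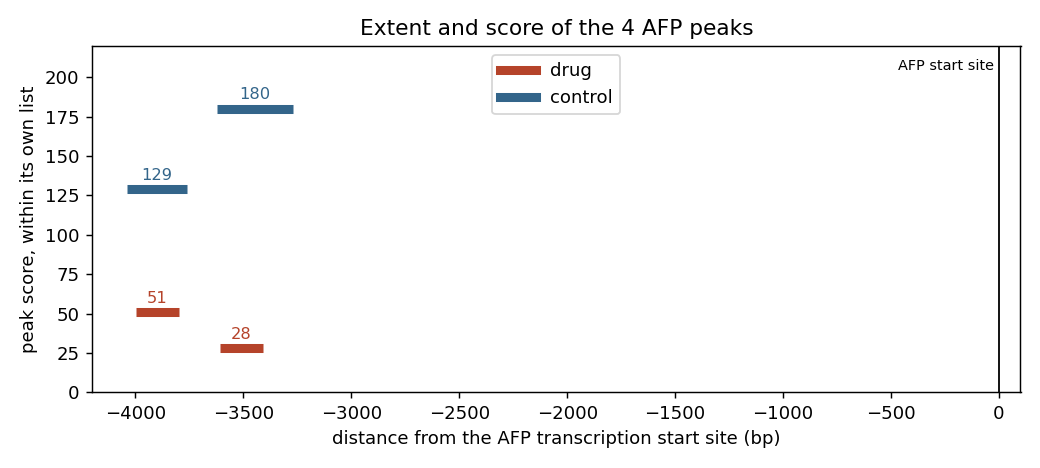
The 4 AFP peaks, drawn as bars from their first to their last base against the distance from the AFP transcription start site in bp, at the height of their score within their own list, for drug and control. Each drug bar lies within the extent of a control bar, and the higher score is farther from the gene in drug and nearer to it in control.

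Sharing was counted as at least 1 base in common. Both AFP peaks of the drug list were overlapped by a control peak, against a background of 70.7% of all drug peaks. Of the 3 albumin family peaks of the control list 2 were overlapped by a drug peak, against 40.1% of all control peaks. Numbers this small cannot be set apart from these shares. Overlap followed strength in both lists, so each peak was also set beside the peaks of its own bin when the list was cut by score into 10 bins of equal size. For the AFP peak farther from the gene, 76.5% of its drug bin and 48.1% of its control bin were overlapped. For the nearer AFP peak, the shares were 52.2% of its drug bin and 77.6% of its control bin. Among intergenic peaks from 1 to 10 kb before a start site, 67.6% of 1127 drug peaks (64.8 to 70.3) and 37.0% of 2007 control peaks (34.8 to 39.1) were overlapped.

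The ALB peak of the control list lay at chr4:73346183-73346382, 58.0 kb before the ALB start site, in the intergenic stretch between ANKRD17 and ALB. It was 200 bp wide and scored 45, in the top 74.9% of its list. No drug peak overlapped it, and the nearest drug peak, the AFP pair, was 85841 bp away. In its bin of the control list, with scores from 42 to 52, 8.60% of 4986 peaks were overlapped by a drug peak. Among control intergenic peaks over 50 kb before a start site the share was 42.6% (39.6 to 45.6). The peak is given to ALB because that is the nearest start site. At equal list length, keeping the 29283 strongest control peaks, scores below 66 drop out and this peak with them, which leaves ALB without a peak in either list.

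**Figure D3:**
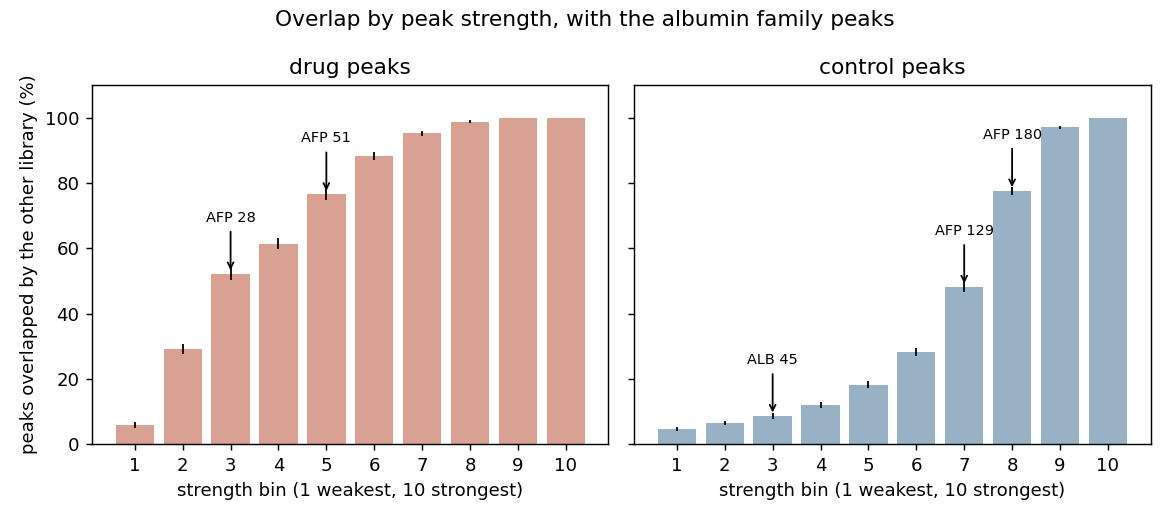
Share of peaks overlapped by the other library in 10 bins of peak score, from weakest to strongest, for drug peaks (left) and control peaks (right), with exact 95% intervals. Arrows mark the bins and scores of the albumin family peaks: AFP in bins 3 and 5 of drug and 7 and 8 of control, and ALB in bin 3 of control.

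AFM, 25.6 kb after AFP, lay in a stretch without peaks of 103.4 kb in drug and 187.4 kb in control, which also held the whole AFP gene. The nearest peak to AFM was a drug peak 32.2 kb after its end at chr4:73536187-73536386, which was named for the non-coding gene LINC02499, scored 49 and met no control peak. In control the nearest was the AFP pair, 48.8 kb away. GC stands apart from the other genes, 1.60 Mb before ALB. The stretch around it without peaks was 953.5 kb in drug and 761.1 kb in control, bounded on the side of ALB by a shared peak in ADAMTS3, a gene for a procollagen protease. On the other side the limit was a peak in SLC4A4, a bicarbonate transporter gene, with a score of 15 in drug and 67 in control at different places. ALB itself, 17196 bp long, lay in a stretch without peaks of 172.8 kb in drug and 85.8 kb in control.

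Genes without peaks were common. Of 20037 protein-coding genes, 31.5% had no peak in the gene body in either list and 30.8% had no peak of any class under their name in either list, as AFM and GC did. A named peak in control and none in drug, as at ALB, was found for 12.8% of genes. An intergenic peak in both lists with no promoter peak in either, as at AFP, was found for 939 genes, or 4.69%. An uncalled peak says only that the signal did not pass the caller's threshold at this unknown depth.

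The surrounding region was described from 500 kb below GC to 500 kb above AFM in coordinate order. This window of 2.76 Mb held 12 drug peaks, or 4.34 per Mb, and 29 control peaks, or 10.5 per Mb. Chromosome 4 as a whole had 4.64 per Mb in drug and 7.13 per Mb in control, and chromosomes 1 to 22, X and Y together 8.72 in drug and 15.1 in control. In the window 9 of 12 drug peaks (75.0%, 42.8 to 94.5) and 9 of 29 control peaks (31.0%, 15.3 to 50.8) were overlapped by the other library, and both intervals hold the shares over all peaks.

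Of the 20 control peaks of the window that no drug peak overlapped, 11 lay inside ANKRD17, the long ankyrin repeat gene before ALB, where the annotation names some of them for its neighbour COX18, a gene for an assembly factor of cytochrome oxidase. Their scores ran from 25 to 185, with a median of 45. At equal list length 7 such peaks were left in the window, of which 2 lay inside ANKRD17. From the start of COX18 to the end of ANKRD17 there were 3 drug peaks and 14 control peaks, of which 3 in drug and 3 in control were overlapped. The control share was 21.4% (4.66 to 50.8), an interval that holds the 40.1% of all control peaks. The drug interval, 29.2 to 100, likewise holds the 70.7% of all drug peaks. The 3 shared ones were the COX18 promoter peak, with a score of 348 in drug and 1530 in control, a promoter peak of ANKRD17 (178 in drug, 941 in control) and an intron peak (35 in drug, 129 in control). The strongest unshared control peak there scored 185, above the 129 of the shared intron peak, and another scored 126, below it. Sharing thus did not follow the score in every case. A further shared promoter peak of ANKRD17, with its centre just past the annotated edge of the gene on the ALB side and thus outside the counted stretch, scored 256 in drug and 666 in control. The peaks at the ANKRD17 and COX18 promoters ranked in the top 18.8% of the drug list and the top 8.79% of the control list or better, above all peaks named for ALB and AFP.

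Between ALB and the end of AFM, 99.7 kb in length, the AFP pair was all that either list held. Beyond AFM, RASSF6, a RAS association domain gene, had a promoter peak scoring 91 in control alone and a distant peak scoring 53 in drug alone. The chemokine gene CXCL8 had 1 drug peak scoring 139 and 4 control peaks, the strongest scoring 462. The drug peak and the strongest control peak overlapped, were classed as intron and spanned the CXCL8 start site. CXCL1 had 0 drug peaks and 3 control peaks scoring from 35 to 108. CXCL5 had a shared peak at its start that scored 57 in drug and 83 in control. ADAMTS3 had a shared peak that scored 78 in drug and 304 in control.

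**Figure D4:**
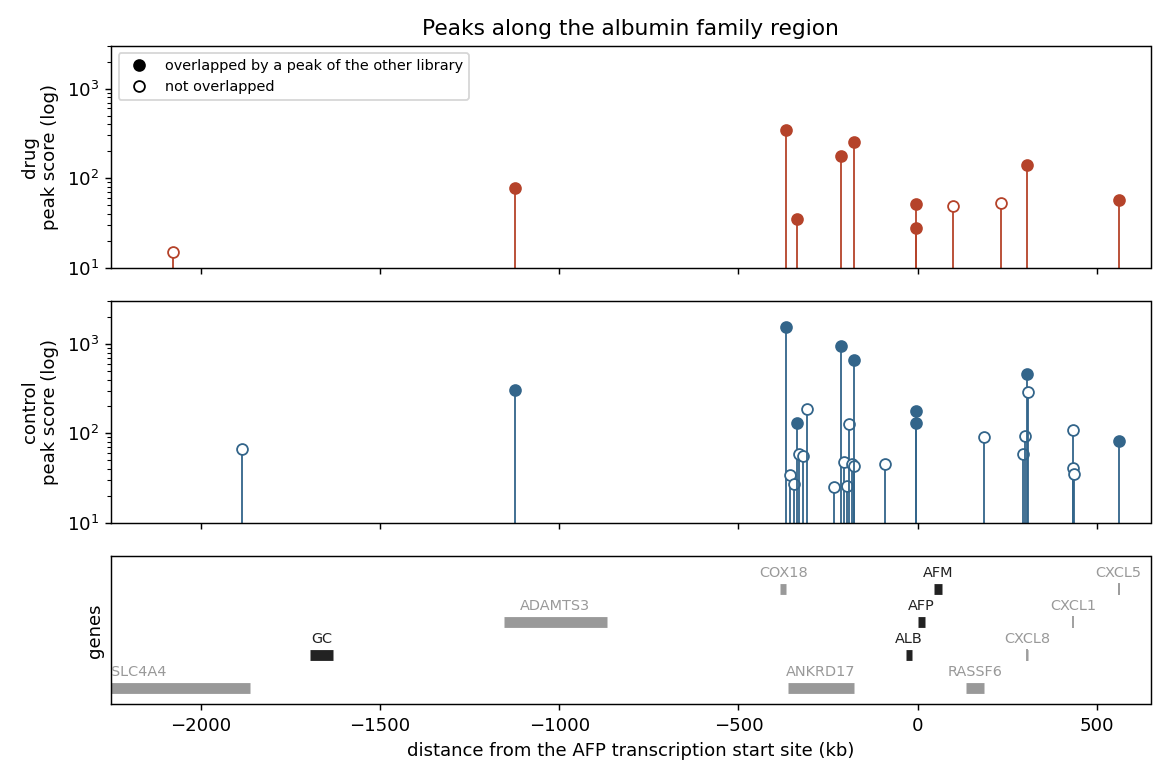
Peaks across the whole region against the distance from the AFP transcription start site in kb, with the peak score on a log axis, for drug (top) and control (middle) and with gene bodies below (family genes in black). The 12 drug peaks and 29 control peaks gather around COX18, ANKRD17, AFP and the chemokine genes, and no circle falls on GC, ALB or AFM in either library.

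Genes that regulate the family were then examined by their promoter peaks. A promoter peak is one in the promoter class of the deposited annotation, and it counted as shared when it overlapped any peak of the other list. Of 26 regulators 13 had a promoter peak in drug and 20 in control, against 35.3% of protein-coding genes in drug and 39.9% in control. All 13 in drug were overlapped by a control peak, and 13 of the 20 in control by a drug peak, against 97.9% of all genes with a promoter peak in drug and 77.7% of those in control. The strongest in control were ZBTB20, a zinc finger repressor of AFP in mice, with a promoter score of 442 in drug and 1795 in control, the D-box factors TEF (320 in drug, 1381 in control) and DBP, named for binding the albumin promoter (242 in drug, 1089 in control), and the nuclear receptor NR2F2 (246 in drug, 613 in control). HNF4A scored 151 in drug and 425 in control. CEBPA scored 187 in drug and 321 in control. FOXA2 scored 115 in drug and 386 in control. Control promoters without a drug peak included those of PROX1 (149), FOXA1 (98), HLF (97), ONECUT1 (60), FOXA3 (58) and ZHX2, another repressor of AFP in mice (36). These scores lay below the median control promoter score of 361 over all genes. Apart from FOXA3, the genes just named had drug peaks of other classes. The top drug scores were 214 at PROX1, 87 at FOXA1, 215 at HLF, 82 at ONECUT1 and 43 at ZHX2. At equal list length 17 regulators kept a control promoter peak, of which 13 were overlapped by a drug peak.

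Of 36 other genes for secreted liver proteins 13 had a promoter peak in drug and 15 in control, or 36.1% and 41.7%, close to the 35.3% and 39.9% of all protein-coding genes. All 13 in drug were overlapped by a control peak, and 14 of the 15 in control by a drug peak, against 97.9% and 77.7% of all genes with a promoter peak. The 4 albumin family genes had 0 in both lists. Of the 36 genes 10 had no peak of any class in either list, as AFM and GC did. The strongest in control were VTN, for the adhesion protein vitronectin (1266 in control, with a drug peak of 352 in another class), FGA, a fibrinogen chain (137 in drug, 644 in control), AGT, angiotensinogen (242 in drug, 526 in control), and F2, prothrombin (245 in drug, 519 in control). The promoter of AMBP (125 in control) had no drug peak. The retinol and iron carriers RBP4 (43 in drug, 262 in control) and TF (71 in drug, 163 in control) had shared promoter peaks, while TTR, HP, APOH and PLG had no peak at all.

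Genes whose products bind, recycle or activate these proteins or their cargo were counted in the same way. Of 14 such genes 1 had a promoter peak in drug and 3 in control, against 35.3% and 39.9% of all protein-coding genes. The count depended on what a promoter peak was: with a peak centre within 1 kb of a start site, 5 had one in drug and 9 in control, against 40.4% and 49.4% of all protein-coding genes. The drug peak was at B2M (139), the light chain of the receptor that recycles albumin, and overlapped a control peak of another class. Control peaks were at DAB2, an endocytic adaptor (186), LRP2, the receptor megalin that takes up GC (122), and VDR, the vitamin D receptor (51). None of the 3 met a drug peak (exact interval 0 to 70.8%), against 77.7% of all genes with a promoter peak in control. All 3 scores lay below the median control promoter score of 361 over all genes. In the control score bins of these peaks, 77.6% (DAB2), 48.1% (LRP2) and 8.60% (VDR) of peaks of any class were overlapped. FCGRT, the heavy chain of the albumin receptor, had only peaks of other classes, scoring 38 at most in drug and 175 in control. CYP2R1, the liver enzyme that starts vitamin D activation, likewise had no promoter peak but a peak scoring 419 in drug and 1271 in control.

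**Figure D5:**
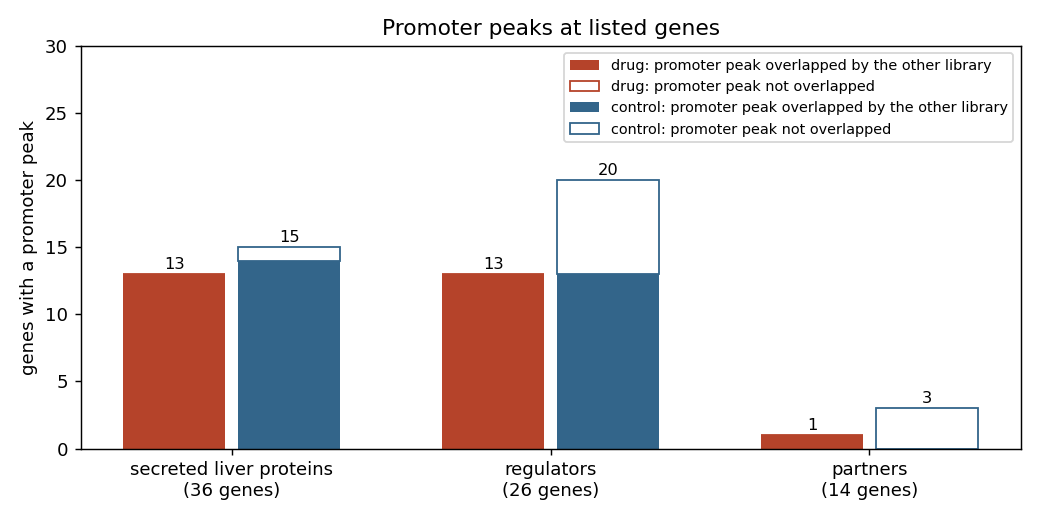
Number of genes with a promoter peak in 3 gene lists, drug left of control, with the filled part overlapped by a peak of the other library and the open part not. Regulators had 13 genes in drug and 20 in control, of which 13 were overlapped in each; secreted liver proteins had 13 in drug and 15 in control, and partners 1 in drug and 3 in control.

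Among the secreted liver proteins, the genes with a peak pattern nearest to each member were found by the distance over the number of peaks and the rank of the strongest peak in the 2 libraries. Nearest to ALB were ITIH4 (distance 0.00716), FETUB (0.294) and HPX (0.586), all with 0 peaks in drug. Their top scores in control were 46 for ITIH4, 91 for FETUB and 49 for HPX, against a median of 80 over all control peaks. Nearest to AFP were ORM2 (0.170), KNG1 (0.445) and APOE (0.460). ORM2 had 2 peaks in each list and scored 34 at most in drug and 156 in control, but with a promoter peak in both. KNG1, for kininogen, resembled AFP in having 2 peaks in each list and no promoter peak, and its strongest, 28.8 kb from the start site, scored 179 in drug and 983 in control. APOE, unlike AFP, had its strongest peak at the promoter in both lists, with a score of 82 in drug and 297 in control.

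Hepatocyte markers had a promoter peak in 4 of 10 genes in drug and 5 of 10 in control, near the 35.3% and 39.9% of all protein-coding genes, so these counts do not set the markers apart. Among them were the asialoglycoprotein receptor gene ASGR1 (123 in drug, 714 in control) and the urea cycle gene CPS1 (389 in drug, 1196 in control). CYP3A4 and PCK1 had no peak in either list. Blood and endothelial markers had 0 promoter peaks in both lists. Of 4 fibroblast markers 1, COL1A2, had a promoter peak in drug, with a score of 15, and 0 had one in control.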

How the data were processed

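Each of the 2 libraries came as 1 peak list, called per library with MACS2 and annotated with HOMER on hg38, per the file headers. The deposited value of a peak is the authors' score. The distance to the nearest start site, a further deposited column, is another value that the authors' annotation gave. The sources used here name no aligner, version, threshold or background library for the calling. The lowest score was 13 in both lists. The control list held 1 line that had been emptied, which was not analysed here. Groups follow the sample titles, which do not give the antibody. The design text names IgG and Pol II libraries. Whether either list is one of these cannot be told from the labels.

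Peaks were compared by position with Python 3.11.15 and pandas 2.3.3. The overlap code was tested on simulated data. Intervals are exact Clopper-Pearson 95% intervals from scipy 1.17.1 and cover counting error only. Gene positions and sequences came from RefSeq tables of GRCh38.p14, the same build. Members and gene lists were chosen with earlier results of these data known. Every member peak and every gene named in the window is given, and per list the 4 highest control promoter scores and each control promoter without a drug peak. A gene that this rule takes is not reported here, though list counts include it. The other list members that are named, the TATA box search and the CpG counts were chosen after the values were seen. Alternatives were score minimums of 20 and 50, equal list length, merged peaks, other overlap rules, other windows, gene bodies with 10 kb, and start sites within 1 kb.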

Additional observations from a re-analysis of the deposited data

How the results depend on the processing

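Of 110 values recomputed under alternatives for 17 counts and shares, 94 stayed within 1.5 times the reported count or within the interval of the reported share, and 16 did not. With a score of at least 50, 1 AFP peak remained in drug, so 1 member peak was overlapped in drug and 1 in control, and the window held 19 control peaks. At equal list length the window held 16 control peaks, of which 56.2% were overlapped by a drug peak. Merging peaks up to 150 bp apart joined the AFP pair in control, which left 1 overlapped member peak there. The window held 19 control peaks with 100 kb on each side, and 32 drug and 56 control peaks with 2 Mb on each side. From 100 kb before ALB to 100 kb after AFM, a window added after the data had been seen, it held 3 drug and 3 control peaks, of which 66.7% of the control peaks were overlapped. Counting peaks within 1 kb of a start site, 5 partner genes had one in drug and 9 in control, and 4 of those 9 were overlapped by a drug peak. Counting shared promoters by name was also added after the data had been seen. The planned motif search in peaks was not run, since no genome was used here. No paired analysis was possible because each group has 1 library. The unknown depth limits every count of peaks.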

Other observations

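The pattern at AFP, at least 2 shared intergenic peaks within 10 kb before the start site and no promoter peak in either list, was found for 22 of 20037 protein-coding genes, or 0.110%. The definition was written after the AFP peaks had been seen. Of the 36 secreted liver proteins, CP and FGB were among the 22, and both were picked out after their values had been seen. At CP, which encodes the copper carrier ceruloplasmin, the peaks lay 3533 and 2217 bp before the start site in drug, with scores of 201 and 111, and 3556 and 2074 bp before it in control, with scores of 725 and 478. At FGB, which encodes a fibrinogen chain and also lies on chromosome 4, they lay 3282 and 2153 bp before the start site in drug, with scores of 51 and 28, and 3343 and 2045 bp before it in control, with scores of 76 and 56. At CP and FGB the peak farther from the gene had the higher score in both lists, whereas at AFP it had the higher score in drug and the lower score in control. CP had 4 named peaks in all in drug and 11 in control. FGB had 5 in control, and its 2 drug peaks were the pair described.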
